A study of Homo sapiens with 9 samples.

Results

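The genes described here are the 51 human genes that encode the translation initiation and elongation factors of the cytosol, with the kinases and binding proteins that regulate them. They were picked from the deposited files by gene name, by a rule that uses no measured value, although the list was drawn up with earlier results of these data known. They are 51 of the 57773 features in the files. All 51 had enough reads to be tested, among 12901 tested genes, so no member was lost to the filter on low values. They fall into 20 elongation factor and eIF3 genes and 31 other initiation factors and regulators, and those classes are set against each other.

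RNA was measured in HepG2, a line of human hepatocellular carcinoma cells. The compound, tris(2-butoxyethyl) phosphate or TBOEP, is an organophosphate added to floor polishes and plastics and known as a flame retardant. Cultures received 125 µM TBOEP, 2.5 µM TBOEP, or none. All groups, controls included, carried 0.1% DMSO as the solvent and were exposed for 72 h, and no cytotoxicity was seen at either concentration, per the labels. Each group had 3 libraries from cells seeded, dosed, extracted and sequenced separately. P-values therefore measure the spread between separate cultures of a single line at fewer than 25 passages. The comparisons asked what each concentration did relative to solvent, and how the high concentration differed from the low one.

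Translation starts when eIF2, loaded with GTP and the initiator tRNA, joins the small ribosomal subunit together with eIF1, eIF1A, eIF3 and eIF5. The eIF4 factors bring this complex to the capped mRNA, and eIF5B then joins the large subunit. During elongation eEF1A delivers aminoacyl-tRNA, the eEF1B complex recharges eEF1A with GTP, and eEF2 moves the ribosome along by a codon. The liver is among the most active tissues in protein secretion, and many mRNAs of the translation machinery begin with a run of pyrimidines, the 5′ terminal oligopyrimidine (TOP) motif, through which mTORC1 signalling sets their translation.

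The start sites of several members carry this run, and they are shown because the motif is the best known sequence shared by translation factor mRNAs. Each line gives 15 bases before the start of a RefSeq transcript and the first 15 bases from it, read 5′ to 3′ on the strand of the gene, from RefSeq on GRCh38.p14. Capitals mark the pyrimidine run, defined here as a C at the first transcribed base followed without a break by at least 4 bases that are each C or T, searched on the gene's strand only. The first set has the run and holds the 5 such genes that passed the test at 125 µM. EEF1A1 and EEF2, which had the most counted reads of the 51, are added. The run of the second EEF1B2 entry is 16 bases long and continues past the printed window.
EEF1A1 (chr6:73521018-73521047, minus strand): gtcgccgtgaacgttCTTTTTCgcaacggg
EEF1B2 (chr2:206159880-206159909, plus strand): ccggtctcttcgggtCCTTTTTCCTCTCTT
EEF2 (chr19:3985449-3985478, minus strand): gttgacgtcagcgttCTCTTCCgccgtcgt
EIF3F (chr11:7987322-7987351, plus strand): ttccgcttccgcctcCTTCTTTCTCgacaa
EIF3K (chr19:38619173-38619202, plus strand): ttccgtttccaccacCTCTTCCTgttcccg
EIF3M (chr11:32583816-32583845, plus strand): gcgcggcccagttccCTTTTCCggtcggcg
EIF4B (chr12:53006441-53006470, plus strand): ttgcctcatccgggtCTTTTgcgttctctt
The second set lacks the run at the listed starts and shows 4 of the 7 members with an entry and no run that were higher at 125 µM, as examples, with the other EEF1B2 start. EEF2K, EIF3C and EIF5A are the 3 not printed.
EEF1B2 (chr2:206159594-206159623, plus strand): gccggaagtggccccagcctcgaggccggg
EIF1 (chr17:41688870-41688899, plus strand): aggcaccgcccctctgccccagtcactgag
EIF2B3 (chr1:44986581-44986610, minus strand): attgggctgtcagtcagaggcggcgtggag
EIF3I (chr1:32222392-32222421, plus strand): accttttccggtcttactcacgttgcggcc
EIF6 (chr20:35284703-35284732, minus strand): ttacttggtaagctggtgtgaggggaacct
EIF6 (chr20:35284758-35284787, minus strand): gaaacctttttagggagtccaaggtacagt

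RefSeq promoter entries were matched by symbol for 42 of the 51 members, and 11 of the 42 (26.2%) had the run at a listed start. They were EEF1A1, EEF1B2, EEF2, EIF2A, EIF2S3, EIF3D, EIF3F, EIF3K, EIF3M, EIF4A2 and EIF4B. Among all genes with an entry, 1404 of 27305 (5.14%) had it, and among tested genes 672 of 8961 (7.50%). By class, 7 of 14 elongation factor and eIF3 genes with an entry held the run, against 4 of 28 other members. Members without an entry are EEF1D, EIF3A, EIF3E, EIF3G, EIF3H, EIF3L, EIF2S2, EIF2AK1 and EIF4EBP1. A match describes these letters in this window only, and the start used in HepG2 was not measured.

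Gene reads ran from 2480964 to 11885877 per library, with the third library at 2.5 µM the shallowest and the second at 125 µM the deepest. Intron reads made up 6.89 to 7.34% of gene reads at 125 µM, 6.46 to 8.97% at 2.5 µM and 7.73 to 8.60% in controls, and the first library at 2.5 µM held the highest share. All 9 hepatocyte-type markers were tested, and their summed level was 38250 to 45073 CPM (read counts scaled to a common library size by TMM) at 125 µM, 53205 to 65603 CPM at 2.5 µM and 64955 to 88211 CPM in controls. Of the 9, 6 were lower at 125 µM, where 19.9% of all tested genes were lower. Of the defining genes of other cell types, PTPRC and CD3E (leukocytes), KDR (endothelium), COL1A2 and DCN (fibroblasts) and MARCO and VSIG4 (Kupffer cells) were at 0 in all 9 libraries. Summed markers were 1.74 to 2.20 CPM at 125 µM, 1.11 to 2.67 CPM at 2.5 µM and 0.987 to 3.45 CPM in controls for endothelium, and 9.61 to 13.6, 18.1 to 26.7 and 19.9 to 23.8 CPM for fibroblasts in the same groups, of which PDGFRB gave nearly all. For leukocytes they were 1852 to 2051 CPM at 125 µM, 2516 to 2865 CPM at 2.5 µM and 2421 to 3069 CPM in controls, nearly all from lysozyme (LYZ); Kupffer cell markers reached at most 0.512 CPM. The part of the marker levels, intron share and depth in the results was not tested. In bulk RNA, fewer cells of a kind and less RNA per cell cannot be told apart.

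Reads that map to several places are nearly missing from the counts of these genes, at 11 of 1207175 reads, so genes with near-identical copies are uncertain. This applies to EEF1A1, EIF4A1, EIF3C (whose copy EIF3CL had 34 reads), EIF3F (EIF3FP3, 478 reads), EIF4B (EIF4BP7, 604 reads) and EIF2S3 (EIF2S3L, 99 reads). Whether reads were counted by strand is not given in the sources used here, and 26 members overlap another tested gene. The overlaps that matter most are EIF1 inside JUP, EIF2A with SERP1, EIF2S2 with RALY, EIF2B4 with AC074117.10, and EIF2B5, whose span in the files takes in EIF4G1 and 11 other tested genes.

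In counted reads per length of exon, EEF2 came first of the group, followed by EEF1A1 and EEF1B2. EEF2 stood at 1204 ± 36.4 RPKM at 125 µM, 1242 ± 47.3 RPKM at 2.5 µM and 1126 ± 25.9 RPKM in controls (reads per exon length and library depth, mean ± SD, n = 3 each). EEF1A1 stood at 596 ± 22.3 RPKM at 125 µM, 680.2 ± 68.2 RPKM at 2.5 µM and 567 ± 11.0 RPKM in controls, and EEF1B2 at 469 ± 13.5 RPKM at 125 µM, 409 ± 59.6 RPKM at 2.5 µM and 264 ± 22.3 RPKM in controls. By these counts EIF3L was the most abundant initiation factor in controls. It stood at 113 ± 2.29 RPKM at 125 µM, 121 ± 3.75 RPKM at 2.5 µM and 115 ± 1.14 RPKM in controls. The lowest in controls were EIF4A1, EIF4E and EIF3C, at 3.12, 2.94 and 2.17 RPKM. EEF1A1, EIF4A1 and EIF3C have near-identical copies, so their place in this order is uncertain.

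At 125 µM against solvent, 12 members were higher, 7 were lower and 32 did not pass an adjusted p of 0.05 in edgeR's quasi-likelihood test with Benjamini-Hochberg adjustment over all 12901 genes. Over all tested genes 20.3% were higher and 19.9% lower (40.2% in either direction), so the members' shares, 12 and 7 of 51, lie close to the background. Scaling by library totals alone gave 13 higher and 3 lower, and limma on RPKM gave 16 and 4. Exon reads gave 11 higher and 10 lower, and limma on quantile-normalised values gave 13 and 8. The members that were higher are EEF1B2, EEF2K, EIF3C, EIF3F, EIF3I, EIF3K, EIF3M, EIF1, EIF2B3, EIF4EBP1, EIF5A and EIF6. Those that were lower are EIF3B, EIF1B, EIF2B4, EIF2B5, EIF2AK4, EIF4B and EIF4EBP2. The median log2 fold change was 0.05 over the members and 0.00 over all tested genes, and the range over members was -0.66 to 0.76. The libraries did not overlap in 14 members in each direction, where 25.6% of all genes were separated upward and 25.2% downward (50.9% in either direction). Of the 19 calls, 12 were of less than 1.5-fold, and 0 of the 51 passed glmTreat, edgeR's test against a 1.5-fold minimum (4 had an unadjusted p under 0.05 there, and DESeq2 called 14 of 51 without a minimum).

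**Figure D1:**
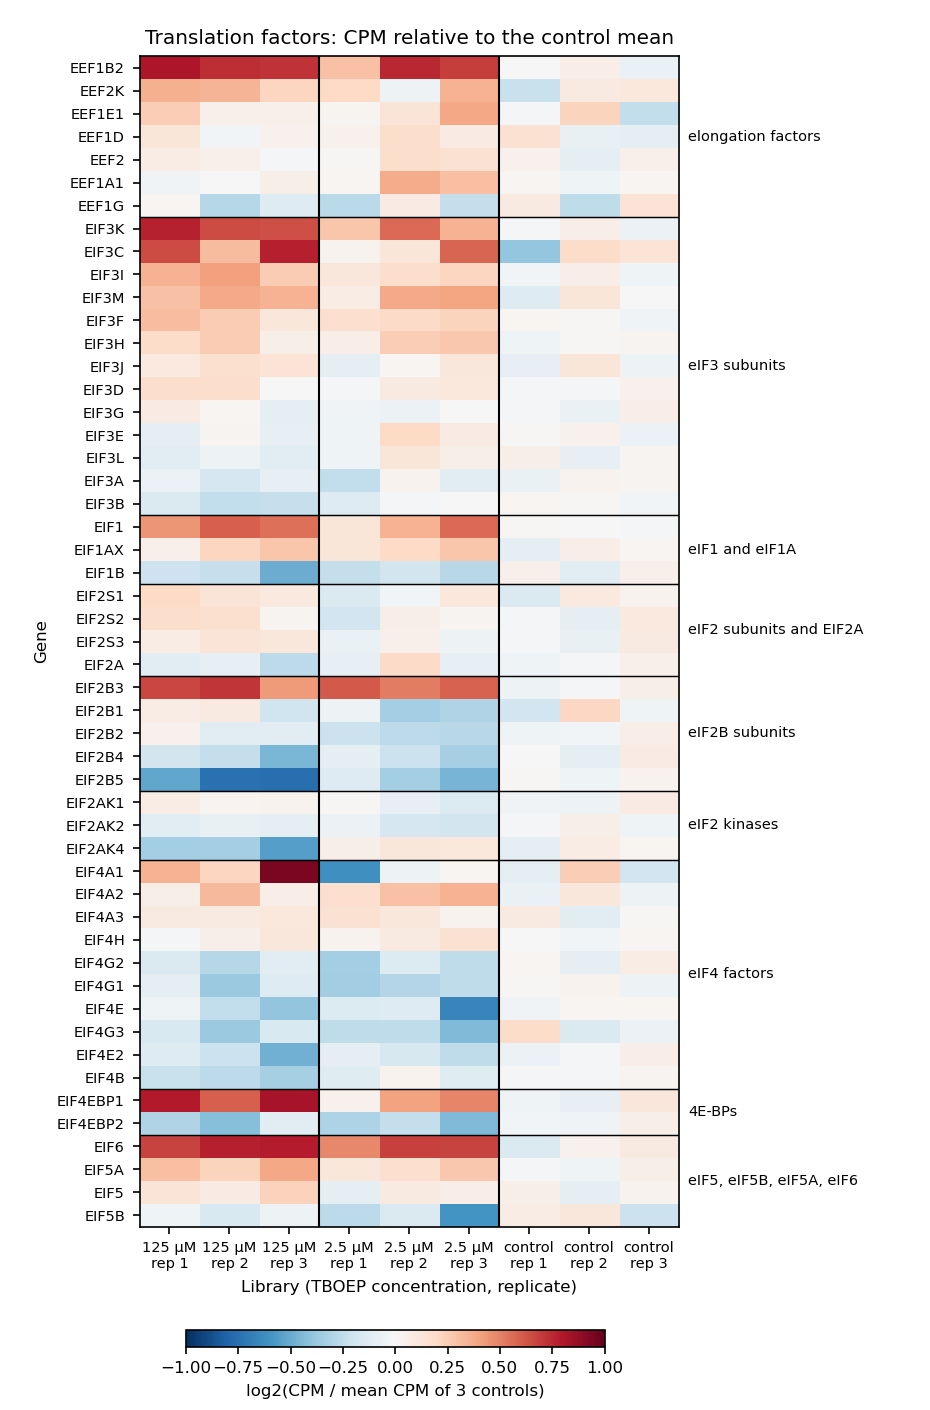
Each row is 1 of the 51 genes, ordered by role, and each column 1 library; colour gives log2 of the CPM over the mean CPM of the 3 controls, on a scale of -1 to 1. EEF1B2, EIF3K, EIF1, EIF2B3, EIF4EBP1 and EIF6 are red in all 3 libraries at 125 µM, EIF2B5 and EIF2AK4 are blue there, and most other rows stay pale.

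**Figure D2:**
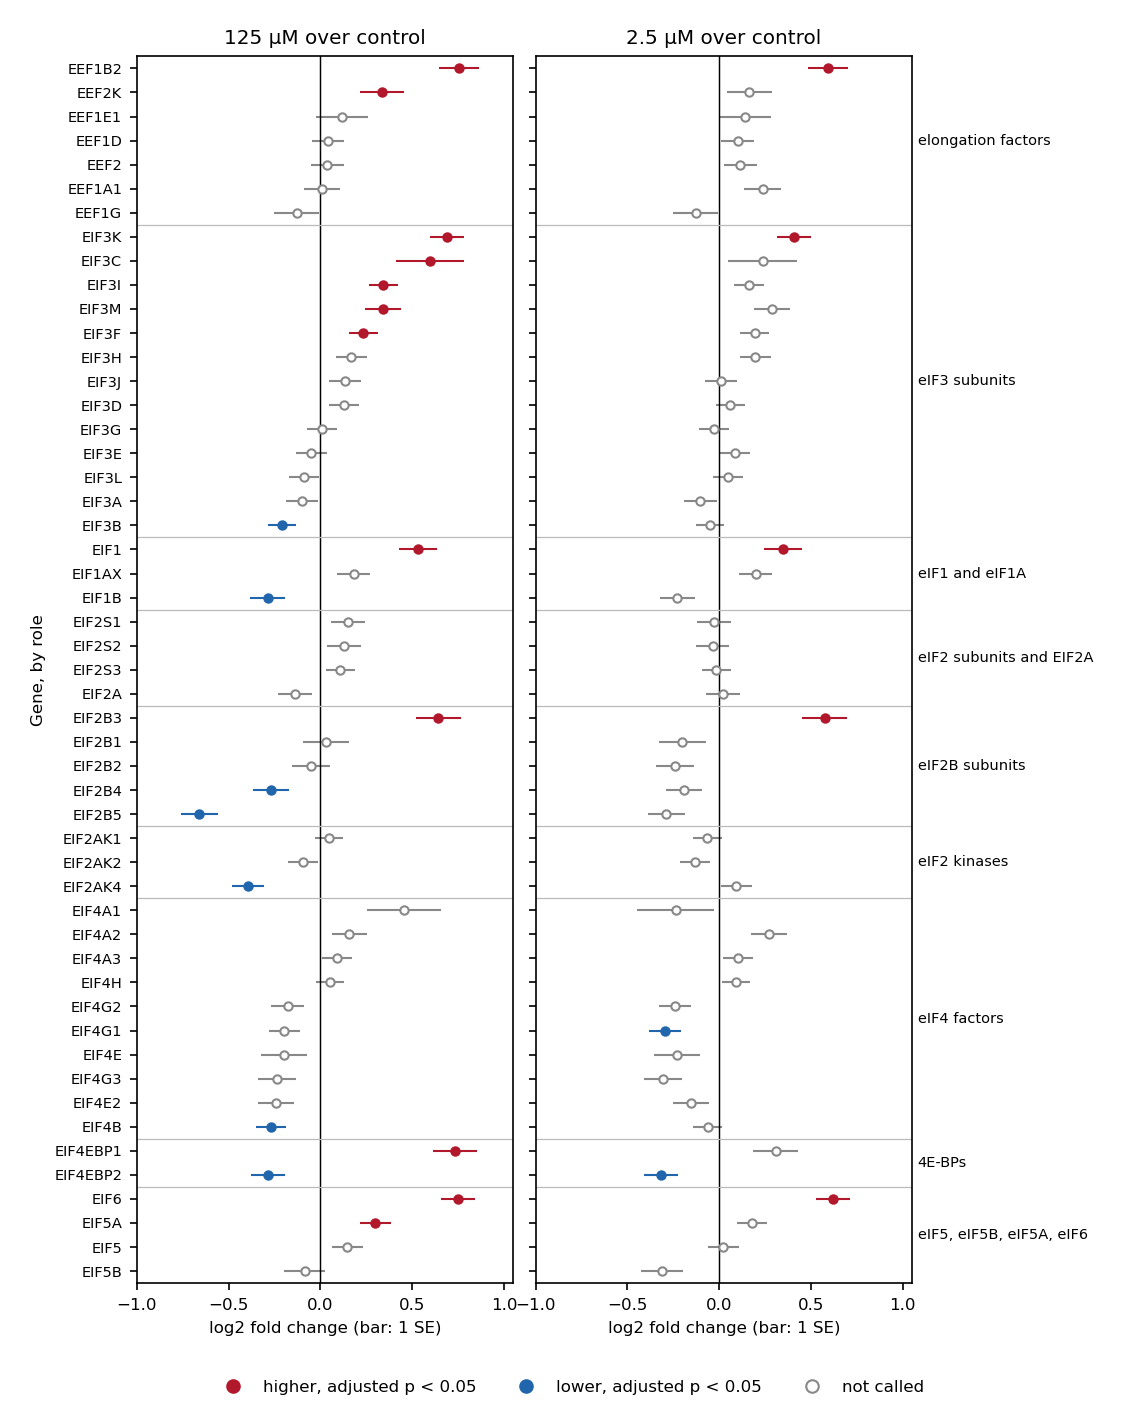
Fitted log2 fold changes of the 51 genes over the 3 controls at 125 µM (left) and at 2.5 µM (right), with bars of 1 SE and filled points for genes past an adjusted p of 0.05. At 125 µM 12 genes are filled to the right of 0 and 7 to the left; at 2.5 µM these are 5 and 2. Both panels use the same 3 controls.

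Among the 7 elongation factors and their relatives, 2 were higher at 125 µM, 0 were lower and 5 did not pass (the unadjusted edgeR p was under 0.05 in the same number, 2). Beside these counts, and those of each role class below, stand 20.3% higher and 19.9% lower over all tested genes at 125 µM. EEF1B2 encodes eEF1B alpha, a subunit that exchanges GDP for GTP on eEF1A (chromosome 2, 207024309 to 207027652 on hg19). It had 931, 888 and 879.6 CPM at 125 µM, 654, 899 and 863 CPM at 2.5 µM, and 531, 559 and 508 CPM in controls. All 6 exposed libraries lay above all controls, with the first at 2.5 µM the lowest of the 6. The log2 fold change was 0.76 ± 0.11 (SE) at 125 µM, 1.69-fold (adjusted p = 0.000105), and 0.59 ± 0.11 at 2.5 µM (adjusted p = 0.00792). On exon reads alone the value at 125 µM was 0.71 ± 0.10.

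The other subunits of the same exchange complex did not pass the test. EEF1G, the gamma subunit, had 153, 123 and 138 CPM at 125 µM, 125, 159 and 127 CPM at 2.5 µM, and 160.2, 126 and 165 CPM in controls, and the groups overlapped. Its log2 fold change at 125 µM was -0.13 ± 0.12, with a 95% interval of -0.37 to 0.11 (here and below, SE times a normal quantile). EEF1D, the delta subunit, had a log2 fold change of 0.04 ± 0.09 and an interval of -0.13 to 0.22. The ratio of EEF1B2 to EEF1G reads, a pair chosen after their values were seen, was 6.10, 7.20 and 6.39 at 125 µM, 5.25, 5.65 and 6.77 at 2.5 µM and 3.32, 4.44 and 3.07 in controls. Every exposed library had a higher ratio than every control.

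EEF2, which carries out translocation, had 4950.4, 4881 and 4646 CPM at 125 µM, 4740.3, 5313 and 5224 CPM at 2.5 µM, and 4841, 4407 and 4872 CPM in controls. Its libraries overlapped in both comparisons, and its log2 fold change at 125 µM was 0.04 ± 0.09 with an interval of -0.14 to 0.21. EEF1A1 did not pass either, at 0.01 ± 0.10 at 125 µM and 0.24 ± 0.10 at 2.5 µM. At 2.5 µM its second and the third libraries had 4521 and 4302 CPM and the first 3543 CPM, against 3402 to 3548 CPM in controls, and without the first library it passed (adjusted p = 0.0134). EEF2K, the kinase that inhibits eEF2, had 50.3, 49.7 and 45.4 CPM at 125 µM, 45.1, 37.8 and 50.0 CPM at 2.5 µM, and 33.6, 41.9 and 42.2 CPM in controls. The libraries at 125 µM lay above the controls and the change was 0.33 ± 0.12 (adjusted p = 0.0375). That call was lost without the first or second library at 125 µM or the first control (adjusted p 0.108 to 0.21). DESeq2 (adjusted p = 0.0828) and limma on RPKM or quantile-normalised values (adjusted p = 0.06 and 0.0956) also ended it. EEF1E1, which sits in the aminoacyl-tRNA synthetase complex, had a log2 fold change of 0.12 ± 0.14.

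Of the 13 eIF3 subunits, which form the scaffold of the initiation complex, 5 were higher at 125 µM, 1 was lower and 7 did not pass. Over all tested genes 40.2% passed in either direction. EIF3K (chromosome 19, 39109735 to 39127595), a small subunit outside the core, changed most. It had 133, 122 and 122 CPM at 125 µM, 94.6, 115 and 99.2 CPM at 2.5 µM, and 77.2, 81.6 and 75.0 CPM in controls. The 3 groups were separated from each other, with 125 µM highest and controls lowest. Its log2 fold change was 0.69 ± 0.09 at 125 µM (adjusted p = 6.93e-05), 0.41 ± 0.09 at 2.5 µM (adjusted p = 0.016) and 0.28 ± 0.09 between the concentrations (adjusted p = 0.0481). The call at 2.5 µM was lost without the second library at 2.5 µM or the first or the third control (adjusted p 0.0551 to 0.0721).

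EIF3I, a core subunit with WD repeats, had 153, 159 and 143 CPM at 125 µM, 129.6, 135 and 139 CPM at 2.5 µM, and 118, 126 and 116 CPM in controls. Every library at 125 µM lay above every library of the other groups, and the change over controls was 0.34 ± 0.08 (adjusted p = 0.00358). EIF3M, a PCI-domain subunit, had 184, 195 and 191 CPM at 125 µM, 158, 195 and 198 CPM at 2.5 µM, and 137, 164 and 149.8 CPM in controls. The libraries at 125 µM lay above the controls, while the first at 2.5 µM lay among them. Its change was 0.34 ± 0.10 at 125 µM (adjusted p = 0.0131), lost without the second library at 125 µM or the first control (adjusted p 0.0523 and 0.0673). EIF3F was higher by 0.23 ± 0.08 on the log2 scale at 125 µM (adjusted p = 0.031). On exon reads it was at 0.18 ± 0.08 and did not pass, and leaving out the first or second library at 125 µM or the first or the third control also ended the call (adjusted p 0.0617 to 0.116). So did DESeq2 (adjusted p = 0.0725) and edgeR with no filter on low counts (adjusted p = 0.08). EIF3C changed by 0.60 ± 0.18 at 125 µM (adjusted p = 0.0179), but only 1191 reads in all were assigned to it. Its call ended without the first or the third library at 125 µM or the first control (adjusted p 0.0522 to 0.132), and with limma on RPKM or quantile-normalised values (adjusted p = 0.0658 and 0.116).

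EIF3B, a core subunit that binds the small ribosomal subunit, was lower at 218 ± 8.50 CPM at 125 µM, against 252 ± 4.00 CPM in controls (SD, n = 3 each). Its log2 fold change was -0.21 ± 0.08 (adjusted p = 0.0435), and 15 of 21 alternatives ended this call, among them leaving out any library but the first at 2.5 µM (adjusted p 0.0506 to 0.16). EIF3L had 480.4, 498 and 477 CPM at 125 µM, 502, 561 and 538 CPM at 2.5 µM, and 537, 487 and 526 CPM in controls, and the libraries at 125 µM overlapped the controls. EIF3A, the largest subunit, had a log2 fold change of -0.10 ± 0.09 at 125 µM, and EIF3D, EIF3E, EIF3G, EIF3H, EIF3J and EIF3L ranged from -0.09 to 0.17. The reads of EIF3K per read of EIF3A, a pair chosen after their values were seen, were 0.216, 0.213 and 0.200 at 125 µM, 0.174, 0.175 and 0.166 at 2.5 µM and 0.125, 0.124 and 0.114 in controls. The 3 groups of ratios did not overlap.

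**Figure D3:**
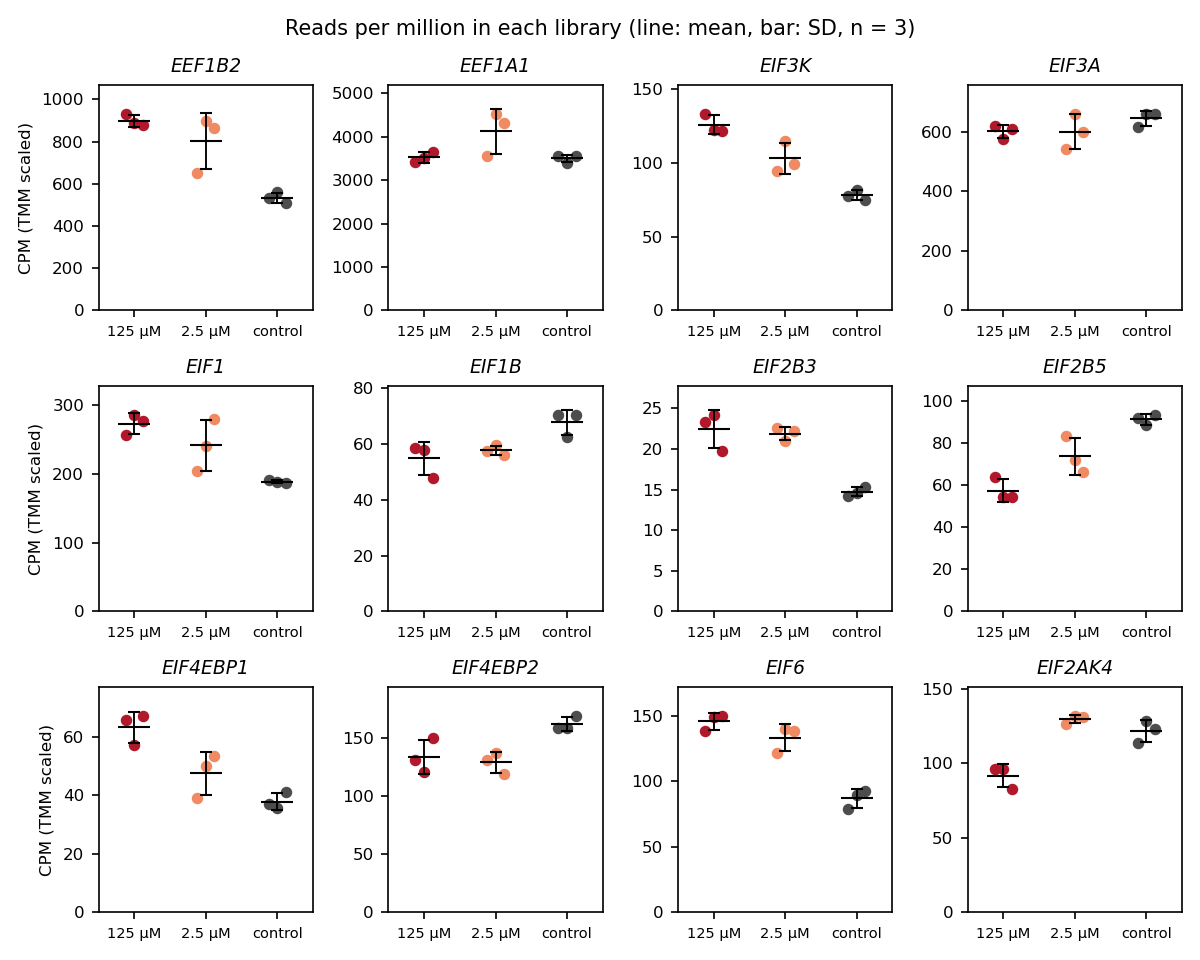
CPM, scaled by TMM, of 12 genes in each of the 9 libraries, with the mean and SD of each group of 3 and axes that start at 0. EEF1B2, EIF3K, EIF1, EIF2B3 and EIF6 lie above the controls in all 6 exposed libraries, EIF4EBP1 in all 3 at 125 µM, and EIF2B5 and EIF2AK4 below the controls in all 3 at 125 µM, while EEF1A1 and EIF3A overlap.

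Of the factors that scan for the start codon, EIF1, which guards its selection (chromosome 17, 39845137 to 39848920), was higher and its close relative EIF1B lower. EIF1 had 256, 285 and 276 CPM at 125 µM, 205, 240.3 and 279 CPM at 2.5 µM, and 190.1, 188 and 187 CPM in controls. All exposed libraries lay above the controls, which lay close together. The log2 fold change was 0.53 ± 0.10 at 125 µM (adjusted p = 0.000886) and 0.35 ± 0.10 at 2.5 µM (adjusted p = 0.0411), where it was lost in 11 of 21 alternatives, 7 of which left out a single library, any but the second at 125 µM or the first at 2.5 µM (adjusted p 0.0522 to 0.161). EIF1B had 58.7, 57.7 and 48.0 CPM at 125 µM, 57.5, 59.6 and 56.0 CPM at 2.5 µM, and 70.4, 62.6 and 70.4 CPM in controls. Its libraries at 125 µM and at 2.5 µM all lay below the controls, and its change was -0.29 ± 0.09 at 125 µM (adjusted p = 0.0253), lost without the second or the third library at 125 µM or the first or the third control (adjusted p 0.051 to 0.0995). DESeq2 and edgeR with library totals alone also ended this call (adjusted p = 0.0533 and 0.0589). EIF1AX, the X-linked gene of eIF1A, did not pass at 0.18 ± 0.09.

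The 3 subunits of eIF2, the GTPase that carries the initiator tRNA, and EIF2A, which is a separate protein despite its name, gave 0 calls out of 4 in every comparison by edgeR and by DESeq2, and 0 with an unadjusted p under 0.05. EIF2S3, the gamma subunit, had 259, 269 and 266 CPM at 125 µM, 234, 255 and 237 CPM at 2.5 µM, and 243, 233 and 261 CPM in controls. With limma on RPKM and on quantile-normalised values it passed at 125 µM (smallest adjusted p = 0.0159). EIF2S1, the alpha subunit that stress kinases phosphorylate, had 86.1, 82.1 and 80.2 CPM at 125 µM, 68.1, 73.8 and 80.6 CPM at 2.5 µM, and 68.0, 80.4 and 77.1 CPM in controls. The libraries at 125 µM overlapped the controls in both genes. EIF2S2, the beta subunit, had 191, 189.7 and 173 CPM at 125 µM, 148, 176 and 172 CPM at 2.5 µM, and 168, 159 and 181 CPM in controls. EIF2A had 171, 174 and 154 CPM at 125 µM, 174, 211 and 174 CPM at 2.5 µM, and 179, 183 and 191 CPM in controls, and every library at 125 µM lay below every control, with a log2 fold change of -0.14 ± 0.09 and an interval of -0.32 to 0.04. The intervals of the 3 eIF2 subunits at 125 µM ran from -0.05 to 0.33.

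The 5 subunits of eIF2B, the exchange factor that recharges eIF2 with GTP, went in different directions: 1 was higher at 125 µM, 2 were lower and 2 did not pass. EIF2B3, the gamma subunit, which with epsilon forms the catalytic part of the complex (chromosome 1, 45316450 to 45452282), had 23.4, 24.2 and 19.8 CPM at 125 µM, 22.5, 21.0 and 22.2 CPM at 2.5 µM, and 14.2, 14.6 and 15.4 CPM in controls. All exposed libraries lay above the controls. Its log2 fold change was 0.64 ± 0.12 at 125 µM (adjusted p = 0.000914) and 0.57 ± 0.12 at 2.5 µM (adjusted p = 0.0121). The call at 2.5 µM was lost without the first control (adjusted p = 0.0745) and with limma on quantile-normalised values (adjusted p = 0.0565). EIF2B5, the catalytic epsilon subunit (chromosome 3, 183852826 to 184402546 in the files), had 63.8, 54.4 and 54.2 CPM at 125 µM, 83.4, 72.2 and 66.1 CPM at 2.5 µM, and 92.0, 88.5 and 93.5 CPM in controls. Both exposed groups lay below the controls and the groups were separated from each other. For this gene the log2 fold change was -0.66 ± 0.10 at 125 µM, 1.58-fold lower (adjusted p = 0.000169), -0.29 ± 0.10 at 2.5 µM (adjusted p = 0.0724) and -0.37 ± 0.10 between the concentrations (adjusted p = 0.0235).

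Intron reads made up 23.4% of the EIF2B5 reads, and on exon reads its value at 125 µM was -0.59 ± 0.10. The overlap with EIF4G1 and other genes applies to both values. EIF2B4, the delta subunit, had 63.5, 61.4 and 52.8 CPM at 125 µM, 67.9, 62.2 and 57.2 CPM at 2.5 µM, and 72.4, 67.7 and 76.6 CPM in controls. The libraries at 125 µM lay below the controls, at -0.27 ± 0.10 (adjusted p = 0.0382), and 12 of 21 alternatives ended this call, 5 of them by leaving out a library at 125 µM or the first or the third control (adjusted p 0.0501 to 0.138). EIF2B1 and EIF2B2, the alpha and beta subunits, were at 0.03 ± 0.13 and -0.05 ± 0.10. The ratio of EIF2B3 to EIF2B5 reads, a pair chosen after their values were seen, was 0.366, 0.444 and 0.365 at 125 µM, 0.270, 0.290 and 0.335 at 2.5 µM and 0.155, 0.165 and 0.164 in controls. No exposed library overlapped the controls in this ratio, which follows from the separation already given for each gene. The overlap of EIF2B5 with other genes applies to the ratio too.

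Among the 3 eIF2 kinases, 0 were higher and 1 was lower at 125 µM. EIF2AK4 encodes GCN2, which senses uncharged tRNA (chromosome 15, 40226347 to 40327797). It had 96.2, 96.2 and 83.2 CPM at 125 µM, 127, 132 and 131 CPM at 2.5 µM, and 114, 128 and 123 CPM in controls. The libraries at 125 µM lay below all others, whereas those at 2.5 µM overlapped the controls. The log2 fold change was -0.39 ± 0.09 at 125 µM (adjusted p = 0.00237), 0.09 ± 0.09 at 2.5 µM (adjusted p = 0.516) and -0.49 ± 0.09 between the concentrations (adjusted p = 0.00186). EIF2AK1, the haem-regulated kinase HRI, had 243, 236 and 237 CPM at 125 µM, 233, 218 and 210.5 CPM at 2.5 µM, and 226, 224 and 245 CPM in controls. EIF2AK2, the double-stranded RNA kinase PKR, had 63.0, 64.9 and 64.1 CPM at 125 µM, 65.4, 60.7 and 60.1 CPM at 2.5 µM, and 67.5, 70.9 and 66.3 CPM in controls. EIF2AK2 lay below the controls in all exposed libraries and EIF2AK1 overlapped them. Neither passed, at 0.05 ± 0.08 and -0.09 ± 0.08 at 125 µM.

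Of the 10 eIF4 cap and helicase factors, 0 were higher at 125 µM, 1 was lower and 9 did not pass (5 had an unadjusted p under 0.05, and DESeq2 also called 1). EIF4B, which stimulates the helicase eIF4A, had 413, 402 and 384 CPM at 125 µM, 444, 494 and 444 CPM at 2.5 µM, and 479, 475 and 492 CPM in controls. Every library at 125 µM lay below every library of the other groups, and the change over controls was -0.27 ± 0.08 (adjusted p = 0.0148). It was lost without the second or the third library at 125 µM or the third control (adjusted p 0.0513 to 0.0661). EIF4A2 had more counted reads per length of exon than EIF4A1, whose count is uncertain because of its copies. EIF4A2 had 553, 664 and 553 CPM at 125 µM, 596, 649 and 672 CPM at 2.5 µM, and 504, 573 and 511 CPM in controls. It overlapped the controls at 125 µM (0.16 ± 0.10). EIF4E2, a cap-binding relative of eIF4E, had 72.1, 68.0 and 56.4 CPM at 125 µM, 73.7, 70.6 and 66.1 CPM at 2.5 µM, and 75.4, 78.2 and 82.7 CPM in controls. EIF4G3, a scaffold of the eIF4F complex, had 97.5, 83.7 and 97.4 CPM at 125 µM, 90.9, 90.7 and 79.8 CPM at 2.5 µM, and 123, 98.0 and 104 CPM in controls. Both lay below the controls in all exposed libraries and neither passed (adjusted p = 0.0572 and 0.0806).

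EIF4E, the cap-binding protein itself, and EIF4G1, EIF4G2 and EIF4G3, the scaffolds, had all exposed libraries below all controls. Their log2 fold changes at 125 µM were -0.20 ± 0.13, -0.20 ± 0.09, -0.18 ± 0.09 and -0.24 ± 0.10, and none passed the threshold in edgeR. In 3 of these 4 the interval excluded 0, but the intervals are narrower than the edgeR test implies. EIF4G1 passed at 2.5 µM, with 308 ± 31.4 CPM at 125 µM, 287 ± 9.05 CPM at 2.5 µM and 352 ± 10.2 CPM in controls (SD, n = 3 each). That change was -0.30 ± 0.09 (adjusted p = 0.0413), and 15 of 21 alternatives ended the call, 8 of them by leaving out any library but the second at 125 µM (adjusted p 0.0582 to 0.135). EIF4A1, of which only 1052 reads were counted, was at 0.46 ± 0.20 at 125 µM. EIF4A3, the helicase of the exon junction complex, and EIF4H were at 0.09 ± 0.08 and 0.05 ± 0.08.

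The 4E-binding proteins, which hold eIF4E away from eIF4G when mTORC1 is inactive, split. EIF4EBP1 had 65.5, 57.2 and 67.0 CPM at 125 µM, 39.0, 50.1 and 53.2 CPM at 2.5 µM, and 36.8, 35.7 and 41.0 CPM in controls. All libraries at 125 µM lay above all others, and of those at 2.5 µM only the first overlapped the controls. In the fit the log2 fold change was 0.74 ± 0.12 at 125 µM, 1.66-fold (adjusted p = 0.00027), 0.31 ± 0.12 at 2.5 µM (adjusted p = 0.114) and 0.43 ± 0.12 between the concentrations (adjusted p = 0.0239). The last call ended without the first or the third library at 125 µM or the first at 2.5 µM (adjusted p 0.0754 to 0.106), and with limma on RPKM or quantile-normalised values (adjusted p = 0.0681 and 0.0795). EIF4EBP2 had 131, 121 and 149 CPM at 125 µM, 130.3, 137 and 119 CPM at 2.5 µM, and 158, 158 and 168 CPM in controls. All exposed libraries lay below the controls. On the log2 scale the fold change was -0.28 ± 0.09 at 125 µM (adjusted p = 0.0237) and -0.32 ± 0.09 at 2.5 µM (adjusted p = 0.0399).

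Neither call of EIF4EBP2 held when single libraries were left out. At 125 µM it ended without the first or second library of that group or the third control (adjusted p 0.0795 to 0.149). Library totals alone in edgeR, and limma on RPKM or quantile-normalised values, also ended it there (adjusted p 0.0563 to 0.0838). At 2.5 µM it ended in 12 of 21 alternatives, 5 of them without the first library at 125 µM, the first or the third at 2.5 µM or the first or the third control (adjusted p 0.0594 to 0.146). The ratio of EIF4EBP1 to EIF4EBP2 reads, a pair chosen after their values were seen, was 0.501, 0.474 and 0.449 at 125 µM, 0.300, 0.366 and 0.447 at 2.5 µM and 0.233, 0.226 and 0.243 in controls. Controls had the lowest ratios, and the group at 125 µM the highest.

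Of the 4 genes EIF5, EIF5B, EIF5A and EIF6, 2 were higher at 125 µM, 0 were lower and 2 did not pass. EIF6, which keeps the ribosomal subunits apart and takes part in making the large one (chromosome 20, 33866714 to 33872788), had 139, 149 and 149.8 CPM at 125 µM, 121, 139.5 and 139 CPM at 2.5 µM, and 78.6, 89.7 and 92.4 CPM in controls. All exposed libraries lay above all controls. The fitted log2 fold change was 0.75 ± 0.09 at 125 µM, 1.68-fold (adjusted p = 3.7e-05), the smallest adjusted p of the 51, and 0.62 ± 0.09 at 2.5 µM (adjusted p = 0.00524). On exon reads the value at 125 µM was 0.71 ± 0.08. EIF5A, which carries the modified residue hypusine and helps ribosomes past stalls (chromosome 17, 7210318 to 7215774), had 150.3, 142 and 160.1 CPM at 125 µM, 132, 138 and 147 CPM at 2.5 µM, and 121, 118 and 127 CPM in controls. Its exposed libraries all lay above the controls, and its change was 0.30 ± 0.08 at 125 µM (adjusted p = 0.00952) and 0.18 ± 0.08 at 2.5 µM (adjusted p = 0.172).

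EIF5, the GTPase activator of eIF2, had 293, 285 and 315 CPM at 125 µM, 251, 286 and 281 CPM at 2.5 µM, and 279.9, 250.2 and 274 CPM in controls. Its libraries at 125 µM lay just above the controls without passing (0.15 ± 0.09, adjusted p = 0.187). EIF5B, the GTPase that joins the subunits, was at -0.09 ± 0.11 at 125 µM and -0.31 ± 0.11 at 2.5 µM, where the third library was the lowest of all 9.

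Set against each other at 125 µM, the elongation factor and eIF3 genes had 7 higher (35.0%) and 1 lower of 20. The other initiation factors and regulators, among which EIF5A was counted, had 5 higher (16.1%) and 6 lower of 31. Of the 7, only EEF1B2, EIF3I and EIF3K kept their calls in every alternative but glmTreat, while all 5 higher calls of the other class did. Of the lower calls, only those of EIF2B5 and EIF2AK4 did. The contrast in higher calls thus rested on calls that some alternatives ended. Over all tested genes 20.3% were higher and 19.9% lower. The median log2 fold changes of the classes, in that order, were 0.12 and 0.03. Their difference of 0.09 was 0.157 without the first control and 0.183 on quantile-normalised values. At 2.5 µM the counts were 2 higher and 0 lower of 20 against 3 higher and 2 lower of 31, with medians of 0.13 and -0.06. There 6.03% of all tested genes were higher and 5.04% lower. Both comparisons share the controls. Per library, the difference between the class medians of log2 CPM over the control mean was 0.11, 0.08 and 0.10 at 125 µM, 0.12, 0.18 and 0.26 at 2.5 µM, and 0.01, 0.05 and -0.02 in controls. The exposed libraries all lay above the controls, and the spread within groups was 0.05 (pooled SD). At 2.5 µM the difference was smallest in the library with the highest intron share (8.97%) and largest in that with the lowest (6.46%), and the part of intron reads in it was not tested beyond a fit to exon reads, which gave 0.09 at 125 µM and 0.21 at 2.5 µM, beside 0.09 and 0.19 on all reads. The members were chosen with results of these data known, so no test is given for the classes.

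In reads, the elongation factor and eIF3 genes took 1.33% ± 0.011 of gene reads at 125 µM, 1.39% ± 0.084 at 2.5 µM and 1.23% ± 0.021 in controls (SD, n = 3 each). The first library at 2.5 µM had 1.29%, and the second and the third had 1.44%. On these unscaled shares all 6 exposed libraries lay above the controls, whose highest was 1.25%. With TMM scaling the first library at 2.5 µM (factor 1.029) would fall among the controls, since the first and the third control have factors of 0.950 and 0.971. These shares are of gene reads without TMM scaling. Most of them came from the elongation factors and relatives, at 0.998% at 125 µM, 1.06% at 2.5 µM and 0.911% in controls. EEF2 and EEF1A1, which had the most reads, were not called. The other initiation factors and regulators took 0.541% ± 0.0039 of gene reads at 125 µM, 0.523% ± 0.0049 at 2.5 µM and 0.524% ± 0.019 in controls, and both exposed groups overlapped the controls.

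**Figure D4:**
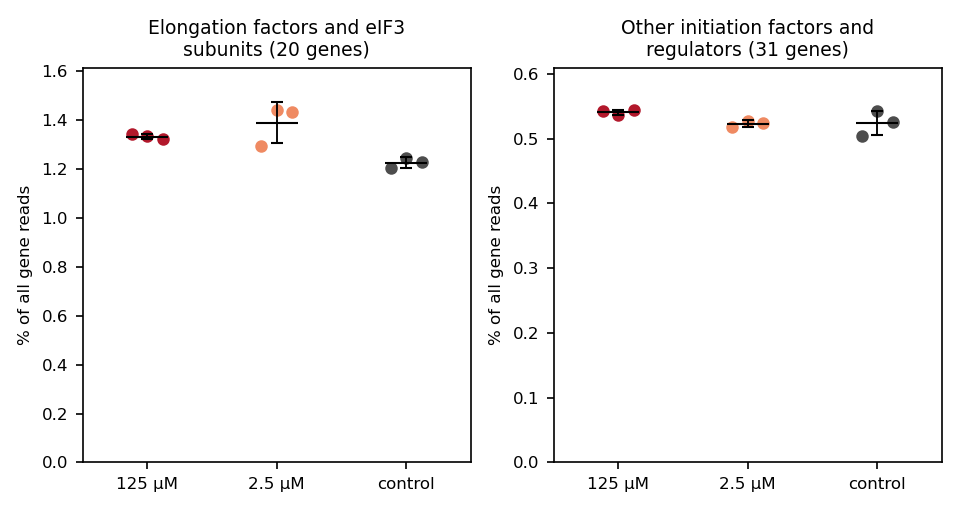
Share of all gene reads, without TMM scaling, taken by each class in each library, in percent, with the mean and SD of each group of 3 and axes that start at 0. The 20 elongation factor and eIF3 genes take 1.29 to 1.44% in the exposed libraries and at most 1.25% in controls, while for the 31 other genes both exposed groups overlap the controls.

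At 2.5 µM against solvent, 5 members were higher, 2 were lower and 44 did not pass, where 6.03% of all tested genes were higher and 5.04% lower (11.1% in either direction). Those that were higher are EEF1B2, EIF3K, EIF1, EIF2B3 and EIF6, each also higher at 125 µM against the same controls, and those that were lower are EIF4G1 and EIF4EBP2. The log2 fold changes of the 5 were 0.59 ± 0.11, 0.41 ± 0.09, 0.35 ± 0.10, 0.57 ± 0.12 and 0.62 ± 0.09. As folds, 2.5 µM gave 1.51-fold for EEF1B2 and 1.53-fold for EIF6, beside 1.69-fold and 1.68-fold at 125 µM. Libraries were separated upward in 12 members and downward in 10, where 14.4% of all genes were separated upward and 13.8% downward (28.2% in either direction). The median over members was 0.02, and over all genes -0.01.

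Between the concentrations, 3 members were higher at 125 µM than at 2.5 µM and 2 were lower, where 7.48% of all tested genes were higher and 7.44% lower (14.9% in either direction). Libraries were separated upward in 7 members and downward in 5, where the shares of all genes were 16.9 and 15.9% (32.8% in either direction). EIF3K, EIF4A1 and EIF4EBP1 were higher and EIF2B5 and EIF2AK4 lower. EIF4A1 had 19.7, 18.0 and 29.7 CPM at 125 µM, 10.1, 14.9 and 15.7 CPM at 2.5 µM, and 14.5, 18.4 and 13.6 CPM in controls, with the third library at 125 µM the highest of all and the first at 2.5 µM the lowest. For this gene the log2 fold change was 0.69 ± 0.20 (adjusted p = 0.0337), lost without the first or the third library at 125 µM or the first at 2.5 µM (adjusted p 0.0663 to 0.154), and its few reads are open to loss to its copies. Limma on RPKM and on quantile-normalised values also ended this call (adjusted p = 0.121 and 0.15). The call of EIF3K here was lost in 13 of 21 alternatives, 6 of which left out a library at 125 µM, the first or the third at 2.5 µM or the third control (adjusted p 0.0672 to 0.176). That of EIF2B5 was lost in 7, among them without the second or the third library at 125 µM or the first or second at 2.5 µM (adjusted p up to 0.122). EIF2AK4 kept its call in every alternative but the 1.5-fold minimum. EEF1B2 (0.16 ± 0.11), EIF2B3 (0.07 ± 0.12) and EIF6 (0.13 ± 0.09) did not differ past the threshold between the concentrations, with intervals of -0.05 to 0.37, -0.16 to 0.30 and -0.04 to 0.31.

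Members with the pyrimidine run at a listed start had 4 higher and 1 lower of 11 at 125 µM, and those with an entry but no run 7 higher and 6 lower of 31. The medians were 0.13 and 0.03. Over tested genes with an entry, 28.9% of those with the run and 20.5% of those without were higher at 125 µM, and 14.4% and 5.72% at 2.5 µM. The 4 that were higher are EEF1B2, EIF3F, EIF3K and EIF3M, and the 1 that was lower is EIF4B. EEF1A1 and EEF2, which carry runs of 7 bases and the most reads, were not called. Of the 9 members reported in the literature to have TOP mRNAs (EEF1A1, EEF1B2, EEF1D, EEF1G, EEF2, EIF3E, EIF3F, EIF3H and EIF4B), 2 were higher, 1 was lower and 6 did not pass at 125 µM.

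The members that were higher were mostly those with a short exon length in the files, a value per gene that was not compared with the length of the mRNAs in HepG2. Of the 17 members with the shortest exon length in the files (1073 to 3623 bases), 8 were higher and 1 lower at 125 µM. Of the middle 17 (3627 to 6146 bases) 0 were higher and 3 lower, and of the longest 17 (6357 to 14067 bases) 4 were higher and 3 lower. The 8 short genes that were higher are EEF1B2, EIF3I, EIF3K, EIF1, EIF2B3, EIF4EBP1, EIF5A and EIF6, and EIF1B was lower. Across the 51 genes Spearman's rho between exon length and log2 fold change was -0.43 at 125 µM and -0.33 at 2.5 µM, a description of genes that share the same libraries and controls. Over all tested genes with a length it was -0.11 and -0.16. In the same ranges of length, 25.0, 19.9 and 16.0% of all tested genes were higher at 125 µM and 15.3, 19.1 and 25.8% were lower. On exon reads rho over the members was -0.40 at 125 µM. The part of intron share and depth in this relation was not tested beyond that fit.

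**Figure D5:**
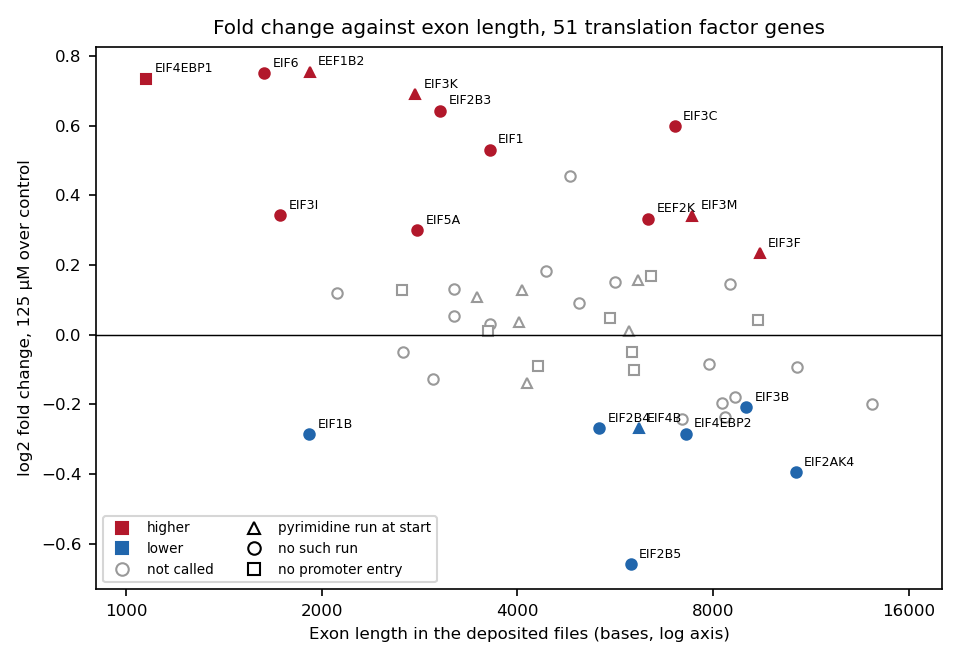
Log2 fold change at 125 µM over control against exon length in the deposited files (log axis) for the 51 genes; colour gives the call and the marker whether the start carries a pyrimidine run. Of the 17 shortest genes 8 are higher and 1 is lower, and the longer genes include 4 that are higher and 6 that are lower.

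Genes of the same pathway outside the 51 were described from lists. Of 32 tested cytosolic translation genes, 5 were higher, 4 lower and 23 did not pass at 125 µM. The background shares over all tested genes are 20.3% higher and 19.9% lower, so these counts lie below them. The genes named are those with the smallest adjusted p in the list, not those with the largest change. ETF1, the release factor eRF1, was lower at 198 ± 31.7 CPM at 125 µM, 291 ± 78.4 CPM at 2.5 µM and 475 ± 129.9 CPM in controls (SD, n = 3 each), a log2 fold change of -1.28 ± 0.20 at 125 µM (adjusted p = 0.000181). Its partner GSPT1, eRF3a, was at 284 ± 36.1 CPM at 125 µM, 342 ± 68.3 CPM at 2.5 µM and 557 ± 107 CPM in controls, a change of -0.97 ± 0.15 (adjusted p = 0.000181). The libraries at 125 µM lay below the controls in both genes. GNB2L1, the ribosomal scaffold RACK1, was higher by 0.43 ± 0.09, and DPH5, which helps to make the diphthamide of eEF2, by 0.32 ± 0.10. GSPT1, GNB2L1 and DPH5 each overlap another tested gene with fewer reads.

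Of 23 genes of eIF2 and cap signalling, 6 were higher, 8 lower and 9 did not pass at 125 µM, where 40.2% of all tested genes passed in either direction. RPS6KB1, the ribosomal protein S6 kinase downstream of mTORC1, stood at 32.1 ± 4.31 CPM at 125 µM, 41.4 ± 3.34 CPM at 2.5 µM and 53.8 ± 2.08 CPM in controls and changed by -0.72 ± 0.11 at 125 µM (adjusted p = 0.000127). AKT1S1, an inhibitory mTORC1 subunit that overlaps TBC1D17, changed by -0.68 ± 0.13, and TSC1, which restrains mTORC1, by -0.50 ± 0.10. PPP1R15A, the stress-induced GADD34 that directs a phosphatase to eIF2 alpha, was higher, by 0.51 ± 0.11 (adjusted p = 0.00226). Of 12 mitochondrial translation factors, 5 were higher, 2 lower and 5 did not pass, beside the same background. GFM1, the mitochondrial translocase, GUF1, a mitochondrial relative of bacterial LepA, and MTIF2, the mitochondrial initiation factor, were higher by 0.41 ± 0.10, 0.64 ± 0.17 and 0.33 ± 0.10, while C12orf65, a release factor homologue, had a log2 fold change of -2.29 ± 0.38. C12orf65 had 9.57, 5.47 and 8.79 CPM at 125 µM, 14.6, 16.8 and 5.64 CPM at 2.5 µM, and 56.4, 16.8 and 34.8 CPM in controls, so the controls varied widely. GUF1 overlaps GNPDA2, and C12orf65 overlaps MPHOSPH9 with 30.1% of its reads in introns. At 2.5 µM 1 cytosolic gene was higher and 3 were lower, 2 signalling genes were lower, and 1 mitochondrial factor was lower, where 6.03% of all tested genes were higher and 5.04% lower.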

How the data were processed

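RNA from 9 HepG2 cultures, 3 at each of 125 µM TBOEP, 2.5 µM TBOEP and 0.1% DMSO, was converted to stranded mRNA libraries and sequenced in pairs, per the labels' protocols. Alignment to hg19 and assignment to genes were done by the authors in CLC Genomics Workbench (series' design text; build also in the submitters' processing notes), with version and use of strand not given in the sources used here. Per the file headers, the deposited count columns give raw reads for each gene. The deposited RPKM values are, per the file headers, the exon reads divided by exon length and by depth. For the third unit, signal, the authors applied quantile normalisation, according to the design text.

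Total gene reads, exon and intron together, were tested as deposited. Genes were filtered with filterByExpr and scaled by TMM, and a quasi-likelihood model (edgeR 4.0.16, R 4.3.3) without covariates took in the 9 libraries as 3 groups. Each comparison was two-sided, with Benjamini-Hochberg adjustment over 12901 genes and a threshold of 0.05. The biological coefficient of variation was 10.0%. Depth ran from 2480964 to 11885877 gene reads, and the rarest of the 51 genes had at least 39 reads in each library. CPM values are scaled by TMM, SE and 95% intervals of log2 fold changes come from the same fit, and intervals cover the spread between libraries. Groups were called separated where no library of one lay within the range of the other.

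The members, the gene lists and the tests were chosen with earlier results of these data known. Every member may be named. Per-library values are given, in each role class, for the member with the highest RPKM and up to 3 with the smallest adjusted p at 125 µM, and of each pathway list up to 4 genes with the smallest adjusted p are named. EIF4A1 and ratios of pairs were added after their values were seen. Alternatives were DESeq2 1.42.0, other scalings and filters, exon reads, RPKM (with 0.5 added before log2) and quantile-normalised values with limma 3.58.1, glmTreat with a 1.5-fold minimum, a replicate block, fits of 2 groups, and leaving out each library. Starts of genes were raised by 1 from the files, which then matched the annotation in 68.8% of 33372 features matched by name, against 1.16% as written. Sequences come from RefSeq on GRCh38.p14, whose positions are not those of hg19.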

Additional observations from a re-analysis of the deposited data

How the results depend on the processing

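At 125 µM the 7 lower calls were 4 with DESeq2, 3 with library totals alone and 4 with limma on RPKM. They were 8 on quantile-normalised values, beside 13 higher, and 10 on exon reads, beside 11 higher. The median over members was 0.00039 on exon reads. The class difference was 0.18 on quantile-normalised values, against 0.09. At 2.5 µM the 5 higher calls were 2 on quantile-normalised values. The 2 lower calls there were 0 with upper-quartile scaling, library totals, RPKM, quantile-normalised values, a replicate block or only the 2 groups compared, and 4 with no filter on low counts or on exon reads. Between the concentrations RPKM gave 1 higher and 1 lower, quantile-normalised values 0 and 1, and exon reads 2 and 3, against 3 and 2, so the balance of directions there was not stable. The test against a 1.5-fold minimum (glmTreat) gave 0 in every comparison, with 4 members under an unadjusted p of 0.05 at 125 µM and 0 in the other comparisons. Leaving out 1 library gave 8 to 13 higher and 2 to 7 lower at 125 µM, 2 to 9 and 0 to 2 at 2.5 µM (9 without the first library at 2.5 µM, 2 without the first control), and 0 to 3 and 1 to 2 between the concentrations. The class difference then ranged over 0.070 to 0.157 at 125 µM, 0.14 to 0.23 at 2.5 µM and -0.135 to -0.00545 between the concentrations. The cause of these changes was not tested. At 125 µM the calls of 10 members (EEF1B2, EIF3I, EIF3K, EIF1, EIF2B3, EIF4EBP1, EIF5A, EIF6, EIF2B5 and EIF2AK4) held in every alternative but glmTreat, and at 2.5 µM only that of EIF6 did. EEF1B2 missed at 2.5 µM on quantile-normalised values (adjusted p = 0.0529). Deviations of same-numbered libraries correlated at -0.24 to 0.18, and those of libraries with unlike numbers at -0.27 to 0.27. In every group the first library had the highest intron share, and the third had the lowest share and the fewest reads. What same-numbered libraries share beyond the number was not tested. With the number as a replicate block 12 members were higher and 6 lower at 125 µM, 5 and 0 at 2.5 µM, and 2 and 2 between the concentrations. Precision is limited by 3 libraries a group, by the depth of the third library at 2.5 µM, and by unknown strand use for genes that overlap.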
